A study of Mus musculus with 41 samples.

Results

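The loss of *Upf2* was studied at the level of mRNA in primary mouse embryonic fibroblasts (MEFs), connective tissue cells grown from dissected embryos. RNA was sequenced from 3 libraries labelled *Upf2*-/- and 3 control libraries, and these 6 of the study's 41 samples are compared here, transcript by transcript and with the transcripts of each gene summed. Both groups came from C57BL/6 embryos of embryonic day 13 that carried Tg(CAG-Cre/Esr1). This transgene is a Cre recombinase driven by the ubiquitous CAG promoter and activated by tamoxifen. The embryos were also *n-Tr20* B6J/B6J, which is the mutated form of a brain-enriched arginine tRNA gene in the B6J strain. The libraries labelled *Upf2*-/- carried *Upf2* fl/fl in addition, whereas the controls had no floxed allele. Cells of both groups received 1 µM 4-hydroxytamoxifen for 48 hours and were collected at passage 1 on day 2, and each library was made from 1 dish of 1 embryo. The share of cells in which Cre removed the floxed exons, and which exons these are, is not given in the sources used here.

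UPF2 is a core factor of nonsense-mediated decay (NMD), the pathway that degrades mRNAs on which a ribosome terminates in an unusual place. In mammals the best known signal is an exon junction complex, a group of proteins deposited near each splice junction, that remains on the mRNA downstream of the stop codon. UPF2 and UPF3 proteins bridge this complex to the helicase UPF1, the kinase SMG1 phosphorylates UPF1, and factors such as SMG5 and SMG6 then lead the mRNA to cleavage or decay. NMD also acts on normal genes, among them splicing factors and ribosomal protein genes that limit their own level by splicing in a premature stop codon, mRNAs with upstream reading frames, and spliced host RNAs of small nucleolar RNAs (snoRNAs).

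The targeted gene was examined first. *Upf2* RNA was not reduced in the libraries labelled *Upf2*-/-. Its values, in CPM (estimated counts scaled to a common library size with edgeR's TMM factors), were 62.9, 43.01 and 29.99 in these libraries and 15.7, 21.4 and 16.7 in the control libraries, so that the groups did not overlap and the labelled mutants were higher. This was a log2 fold change of 1.33 with a standard error of 0.24 and an adjusted p of 0.00331. All adjusted p values come from the quasi-likelihood test of edgeR, with Benjamini-Hochberg adjustment over every gene or transcript tested. *Upf2* lies on chromosome 2 from 5951469 to 6056703 of GRCm38, and the full-length transcript *Upf2-201* has 22 exons. A shorter coding model, *Upf2-202*, starts after the first 11 of these exons, at 6023339, and has 11 exons. *Upf2-202* was at 22.5, 15.2 and 10.6 CPM in the labelled mutants and at 1.18, 1.12 and 1.17 CPM in controls, a log2 fold change of 3.77 (adjusted p = 0.00327). For *Upf2-201* the values were 38.9, 26.6 and 18.4 CPM and 14.4, 20.3 and 15.8 CPM, and the change of 0.71 on the log2 scale did not pass the threshold (adjusted p = 0.214). A sum over the gene includes reads from any exons that the allele leaves in place, and which exons it removes is not known here. The sum therefore does not check the deletion, and the genotype is taken from the labels throughout. The cause of the higher *Upf2* RNA was not tested. The genes targeted in other MEFs of the study, *Pelo* and *Hbs1l*, had log2 fold changes of -0.104 and -0.102, and neither passed the threshold.

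Between 22713643 and 77329534 estimated counts were deposited for each control library and between 32616747 and 59978261 for each labelled mutant. Log2 CPM values correlated across genes at 0.988 to 0.993 within groups, and no pair of libraries agreed within sampling noise. The share of TPM (a unit that corrects for transcript length and library size) in short noncoding RNAs, such as rRNA, snRNA and snoRNA, was uneven, at 25.8%, 28.6% and 35.8% in the labelled mutants and 27.7%, 18.7% and 9.89% in controls. Expression of the Y-linked gene *Ddx3y* above 1 CPM was seen in 2 of the 3 labelled mutants and 1 of the 3 controls, so sex was not balanced. The fibroblast markers *Vim* (4517 to 6271 CPM) and *Col1a1* (2236 to 3669 CPM) were abundant in every library.

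Of 15983 genes tested, 3194 changed at an adjusted p of at most 0.05 (20.0%). In total 2113 genes were higher in the labelled mutants (13.2% of those tested) and 1081 were lower (6.76%), and 39.9% of genes had groups that did not overlap. Among genes that changed at least 2-fold, 790 were higher (4.94%) and 158 lower (0.989%). The number of genes called fell to 1800 without control 2, to 1858 without control 3 and to 1995 without labelled mutant 2. The number of genes called lower moved most, to 671, 430 and 476 without controls 1, 2 and 3 and to 395 and 597 without labelled mutants 2 and 3, and was 1154 without labelled mutant 1. The genes called higher numbered 1370 to 2047 in these fits, with 1370 and 1382 without controls 2 and 3. At the level of transcripts, 2175 of 40620 changed (5.35%), of which 1775 were higher (4.37%) and 400 lower (0.985%). All of these 2175 transcripts had groups that did not overlap, as did 32.4% of all transcripts tested. Leaving out any 1 of the 6 libraries reduced the count of transcripts to between 567 and 1278, and DESeq2, another count test, called 5639. Of the genes named in the text, *Acta2*, *Ankzf1*, *Ccdc184*, *Ccng1*, *Cebpb*, *D6Wsu163e*, *Derl3*, *Efemp1*, *Eif4a2*, *Eprs*, *Gars*, *Gdf15*, *Gm21887*, *Lox*, *Loxl3*, *Ogn*, *Pcbp2*, *Pde6a*, *Perp*, *Pycr1*, *Rars*, *Rpl10a*, *Sdf2l1*, *Snhg3*, *Srsf5*, *Syncrip*, *Tra2b*, *Trib3*, *Twist2*, *Vim* and *Yars* lost their call when at least 1 of the libraries was left out, as did the NMD-annotated and retained-intron transcripts *Acp1-204*, *Clk1-210*, *Clk3-209*, *Ercc8-210*, *Hnrnpk-230*, *Nop58-209*, *Nupr1-205*, *Rtca-204*, *Snrnp70-204*, *Snx17-202*, *Srsf2-204*, *Ssr4-204*, *Tardbp-230* and *Tsta3-210* and the coding transcripts *9130008F23Rik-201*, *Ddx39-206*, *Dnajc27-202*, *Fkbp2-204*, *Hnrnpa2b1-202*, *Marveld1-201*, *Nxf1-209*, *Prmt6-203*, *Rpl10a-201*, *Rpl22l1-206*, *Rps19-203*, *Smg6-201* and *Snrpa1-206*.

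The annotation sorts transcripts into types, and one of these, nonsense_mediated_decay, holds transcripts whose reading frame ends well before the last splice junction. These NMD-annotated transcripts rose more often than any other type with over 300 tested transcripts. Of 2945 tested, 434 were higher in the labelled mutants (14.7%) and 3 were lower, with a median log2 fold change of 0.88 against 0.00 over all transcripts, and 2334 had a positive change. The count was 126 to 313 when 1 library was left out, with 131, 126 and 134 without labelled mutants 1, 2 and 3, and 288 and 180 without controls 1 and 2. Retained-intron transcripts, which keep an intron in the RNA, included 277 higher and 8 lower of 5696 tested (4.86% higher, median 0.26). The protein-coding type, by contrast, had 794 higher and 374 lower of 26599 (2.99% higher, median -0.09). Processed transcripts, which have no annotated reading frame, had 168 higher and 10 lower of 3005, and lncRNAs had 72 higher and 1 lower of 1379. NMD-annotated transcripts made up 24.5% of all transcripts that rose, retained-intron transcripts 15.6%. Over all 40620 transcripts tested 4.37% were higher, so the 4.86% of retained-intron transcripts was close to the share of all types together.

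**Figure D1:**
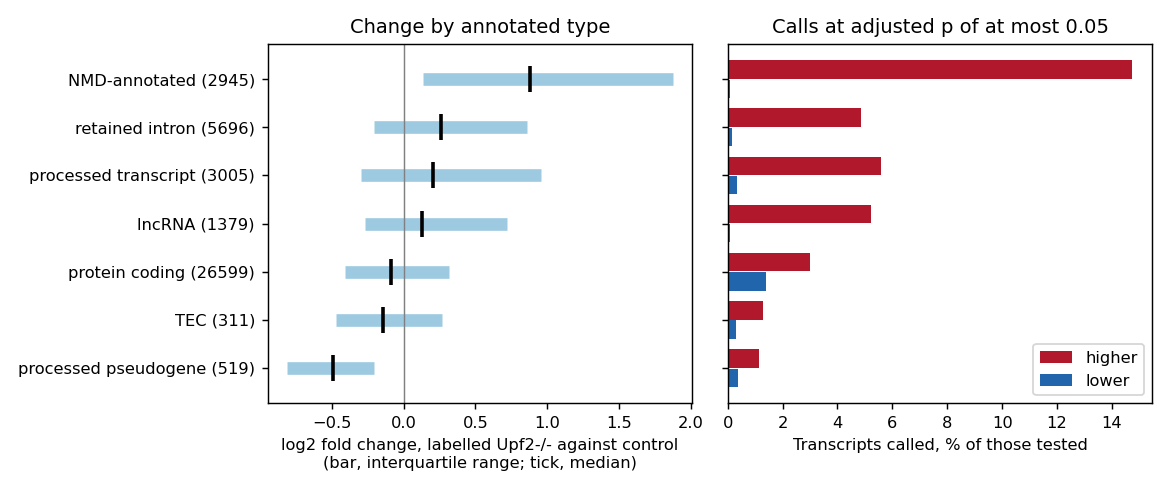
Left, log2 fold change of transcripts in libraries labelled *Upf2*-/- against controls by annotated type, with the number tested in brackets, the interquartile range as a bar and the median as a tick. Right, the percentage of tested transcripts called higher or lower, which reaches 14.7% higher for NMD-annotated transcripts and stays under 6% for the other types.

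The 434 transcripts came from 389 genes. In 229 of these genes the summed RNA was also called higher, in 3 it was called lower and in 157 it was not called, and the median change of the gene totals was 0.53 on the log2 scale. Thus in many genes the NMD-annotated form rose while the gene total gave no call. In TPM, NMD-annotated transcripts took up 2.45%, 2.48% and 2.28% of each labelled mutant and 1.78%, 1.81% and 2.06% of each control. The groups did not overlap, and the difference of 0.52 percentage points had an exact two-sided permutation p of 0.1, the smallest that 3 against 3 libraries can give. Without short noncoding RNAs, whose share differed between libraries as given above, the shares were 3.30%, 3.47% and 3.55% against 2.46%, 2.22% and 2.28%, a difference of 1.12 percentage points (exact permutation p = 0.1). Retained-intron transcripts held 2.15%, 2.25% and 2.01% of TPM in the labelled mutants and 1.84%, 2.04% and 2.27% in controls, so that the groups overlapped (exact permutation p = 0.7), and without short RNAs they differed by 0.53 percentage points (exact permutation p = 0.1).

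Within genes, the share of a gene's TPM in its NMD-annotated transcripts could be computed for 2476 genes with a mean of at least 5 TPM. In 941 of them the share was above that of the controls without overlap, and in 43 (1.74%) it was below. The median share was 5.80% in the labelled mutants and 2.62% in the controls.

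The position of the stop codon was read from the Gencode M21 models of GRCm38. Of NMD-annotated transcripts with a complete reading frame and a stop codon more than 50 nucleotides before the last exon junction, 344 of 2231 rose (15.4%) and 3 fell. Coding transcripts with such a stop were few, and 11 of 105 rose (10.5%) with none lower, against 701 higher (3.10%) and 359 lower of 22608 other coding transcripts. These 11 were *Srsf2-206*, *Prelid3a-201*, *Prmt6-203*, *Fkbp2-204*, *Dnajc27-202*, *Hnrnpa2b1-202*, *Ddx39-206*, *Tbrg4-212*, *9130008F23Rik-201*, *Nxf1-209* and *Marveld1-201*, with log2 fold changes from 0.64 to 4.19. *Srsf2-206*, from the gene of an SR splicing factor, was at 16.5, 10.5 and 16.3 CPM in the labelled mutants and 0.709, 0.68 and 0.892 CPM in controls. For the remaining coding transcripts, 2.34% rose in the tertile with the shortest 3′UTRs, 3.69% in the middle tertile and 3.28% in the tertile with the longest. Coding transcripts with no upstream ATG rose in 2.90% of cases and those with 5 or more in 3.93%, while 1.98% and 0.546% fell. Among NMD-annotated transcripts, the stop lay in a coding exon of the gene's main coding transcript in 1281 (194 higher, 15.1%), in an intron of it in 733 (122 higher, 16.6%), in an untranslated exon in 12 (none higher) and outside it in 74 (8 higher, 10.8%). In the other 107 (14 higher, 13.1%) it was the stop codon of the main coding transcript itself.

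SR proteins, which bind exons and promote their splicing, are known to control their own mRNAs through poison exons, short exons that bring in a stop codon. Of 15 NMD-annotated transcripts of SR genes tested, 8 rose and none fell, with a median log2 fold change of 2.49, against 14.7% higher and a median of 0.88 over all NMD-annotated transcripts. Of 41 coding transcripts of the same genes, 3 rose and 2 fell (median -0.05), against 2.99% higher and 1.41% lower over all coding transcripts. The gene totals told little of this. Among 16 SR genes only *Srsf4* (log2 fold change 0.96) and *Tra2b* (0.56) rose, and *Srsf5* (-0.47) and *Srsf12* (-1.15) fell. The share that rose was close to the 13.2% of all genes called higher, and 6.76% of all genes were called lower.

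*Srsf3-201*, the NMD-annotated form of *Srsf3*, was at 117, 93.6 and 92.4 CPM in the labelled mutants and at 16.5, 19.2 and 17.3 CPM in the controls. Every mutant library lay far above every control, and the difference of 2.49 on the log2 scale had a standard error of 0.13 and an adjusted p of 0.000891. The main coding form *Srsf3-202* was at 95.4, 128 and 67.9 CPM against 195, 178 and 193 CPM, lower without overlap but short of the threshold (log2 fold change -0.98, adjusted p = 0.0575), and the gene total was level at -0.01. As a share of the gene's TPM, the NMD-annotated transcripts of *Srsf3* were 51.3, 38.8 and 53.2% in the labelled mutants and 7.17, 9.11 and 7.59% in controls. For *Tra2b*, which encodes a splicing activator related to SR proteins, the shares were 67.8, 63.2 and 63.8% and 11.3, 19.4 and 17.3%. This was the highest mutant share among the SR genes plotted. The shares of *Srsf2* were 49.4, 42.3 and 47.01% and 13.4, 9.898 and 23.5%, and those of *Srsf4* were 33.04, 31.04 and 35.7% and 8.09, 7.23 and 6.24%. In 12 of 14 SR genes the share was above the controls without overlap, against 941 of 2476 genes in all, and the exceptions were *Srsf5* and *Srek1*.

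To show where these forms end, the 30 nucleotides around the annotated stop codon of SR transcripts that rose are printed, 5′ to 3′ along the transcript with the stop codon in capitals, from the Gencode M21 transcript sequences on GRCm38.
Srsf3-201: tctcaccaccctcTGAatctgcattagcca
Srsf4-204: tcatgccccagctTAGagtgcttcacccta
Srsf7-203: gagtcagtcgcctTGAttcagaatgtcacg
Tra2a-202: aagattggtcagaTAGaagcacttgaatat
Tra2b-206: gctcaggaataagTGAagctgaaatttgaa
Srsf2-202: agcagtttcttccTAAgaaaatgctgcggt
Srsf2-204: agcagtttcttccTAAgaaaatgatgaatc
The stop of *Srsf3-201* is at chr17:29039485-29039487 on the plus strand, that of *Srsf4-204* at chr4:131884388-131884390 on the plus strand, that of *Srsf7-203* at chr17:80205054-80205056 on the minus strand, that of *Tra2a-202* at chr6:49252965-49252967 on the minus strand and that of *Tra2b-206* at chr16:22259181-22259183 on the minus strand. In these 5 transcripts the stop lies in what is an intron of the main coding form, and 548 to 1015 nucleotides separate it from the last exon junction. *Srsf2-202* and *Srsf2-204* instead use 1 and the same stop at chr11:116852028-116852030 on the minus strand, which is also the stop of the main coding form *Srsf2-201*. They differ in the bases after it, where the 3′UTR is spliced differently, and have 217 and 113 nucleotides from the stop to the last exon junction. The log2 fold changes were 4.18 for *Srsf2-202*, 1.86 for *Srsf2-204*, 3.51 for *Srsf4-204*, 3.26 for *Srsf7-203*, 3.02 for *Tra2a-202* and 2.53 for *Tra2b-206*.

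**Figure D2:**
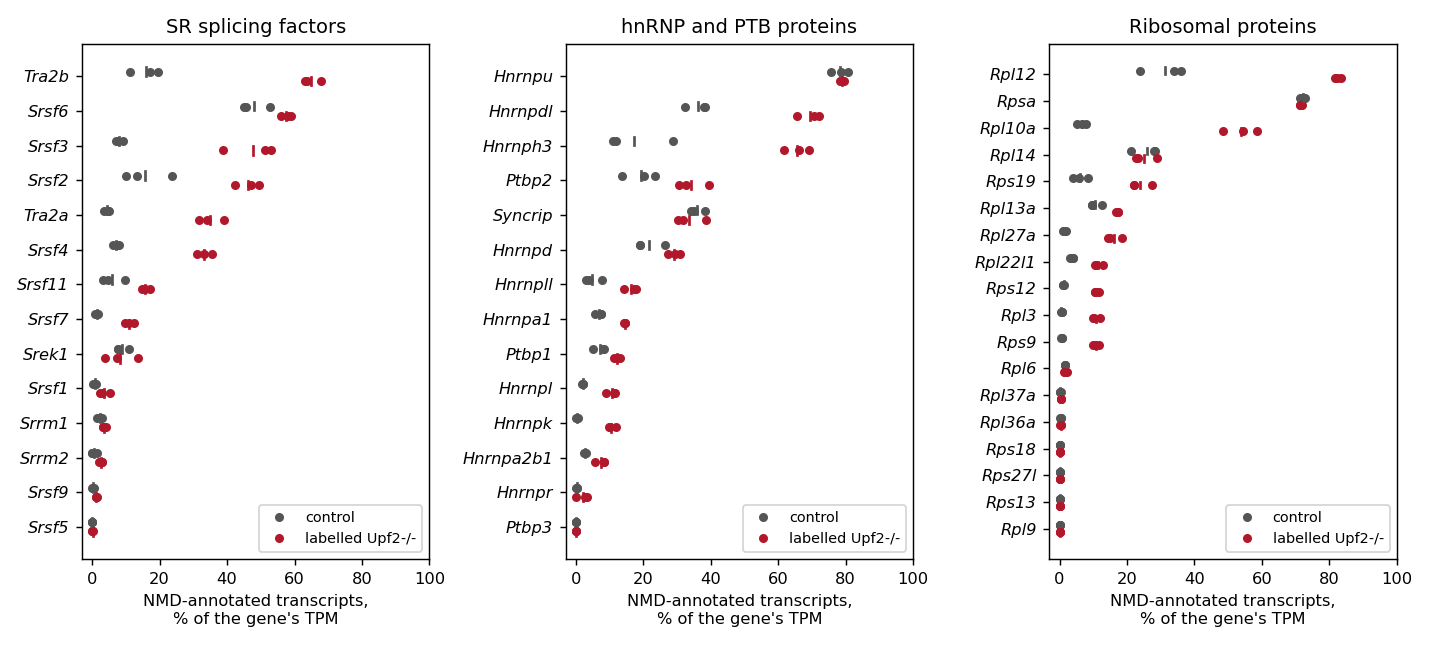
Share of each gene's TPM in its NMD-annotated transcripts, in percent, for SR splicing factors, hnRNP and PTB proteins and ribosomal proteins, with 1 point per library and the group mean as a tick. The labelled *Upf2*-/- libraries lie above the controls without overlap in 12 of 14 SR genes and 10 of 14 hnRNP and PTB genes, whereas *Hnrnpu* and *Rpsa* overlap.

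Genes of hnRNP and PTB proteins, which bind introns and often repress exons, gave 8 of 22 NMD-annotated transcripts that rose and none that fell (median 1.07), against the same 14.7%, while 4 of 132 coding transcripts rose and 1 fell (median -0.32), about the share of all coding transcripts. Totals of *Hnrnpdl* (1.32) and *Hnrnph3* (1.26) rose, those of *Pcbp2* (-0.35) and *Syncrip* (-0.49) fell, and the other 23 of 27 genes were not called. Over all genes, 13.2% were called higher and 6.76% lower, so these totals did not rise more often than other genes. *Hnrnpk-203* was not seen in any control library (0 counts, a floor of 3 counts per library) and was at 3.85, 4.99 and 3.47 CPM in the labelled mutants, at least 40.9-fold higher. It uses the same stop codon as *Hnrnpk-230* (chr13:58396879-58396881, minus strand), whose log2 fold change was 4.55 (adjusted p = 0.0377). The share of *Hnrnph3* TPM in NMD-annotated transcripts was 69.2, 61.7 and 66.3% in the labelled mutants and 28.9, 11.8 and 10.9% in controls. *Hnrnpu* had high shares in both groups, at 79.4, 78.4 and 78.7% and 80.5, 78.7 and 75.6%, and these overlapped.

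Other splicing regulators and RNA-binding proteins had 18 of 48 NMD-annotated transcripts higher, again against 14.7%, and none lower (median 1.39), with 4 of 150 coding transcripts higher and 2 lower (median -0.10), again about the share of all coding transcripts. Several are subunits of the splicing machinery. *U2af1-208*, from the gene of the factor that recognizes the 3′ splice site, was at 70.4, 57.1 and 61.3 CPM in the labelled mutants and at 2.84, 3.48 and 3.701 CPM in controls (log2 fold change 4.199, adjusted p = 0.00034). *Snrpa1-201*, from a gene of the U2 snRNP, rose from 1.61, 2.28 and 2.297 CPM in controls to 37.4, 36.05 and 33.2 CPM (log2 fold change 4.07). The main coding form *Snrpa1-206* fell by 0.67 on the log2 scale (adjusted p = 0.0414), so that the NMD-annotated share of this gene was 51.2, 52.8 and 54.6% in the labelled mutants and 2.92, 4.85 and 4.41% in controls. *Snrpb-203*, from a gene of the Sm ring of snRNPs, was at 32.5, 28.3 and 37.4 CPM against 0.804, 2.04 and 1.69 CPM, and *Luc7l-206*, from a gene of a U1-associated protein, at 47.8, 42.9 and 38.6 CPM against 2.695, 1.8 and 2.39 CPM. The NMD-annotated form *Cirbp-201* of the cold-inducible RNA-binding protein rose by 3.26 and its gene total by 1.76. NMD-annotated forms of *Tardbp*, the gene of TDP-43, and of the splicing kinase genes *Clk1* and *Clk3* rose too, by 2.102 (*Tardbp-230*), 3.07 (*Clk1-210*) and 3.001 (*Clk3-209*).

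The stop codons of 4 of these forms and of 2 hnRNP forms, shown as for the SR genes, are as follows.
U2af1-208: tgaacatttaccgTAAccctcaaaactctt
Snrpa1-201: gaaactcaaatttTAAtccaggtgctggtt
Snrpb-203: atttgtaaagctgTAGcctacagggctctc
Luc7l-206: acgcgcatggattTAGgagaatgtaccaaa
Hnrnpk-203: tgagtatcagtgcTGAtattgagacgattg
Hnrnpl-213: gctaactcactgtTGAagcgtccaatggtg
They lie at chr17:31651684-31651686 (minus strand) for *U2af1-208*, chr7:66070593-66070595 (plus strand) for *Snrpa1-201*, chr2:130176695-130176697 (minus strand) for *Snrpb-203*, chr17:26257936-26257938 (plus strand) for *Luc7l-206* and chr7:28817391-28817393 (plus strand) for *Hnrnpl-213*. In the main coding form these positions are coding exons for *U2af1*, *Snrpa1*, *Luc7l* and *Hnrnpk*, where another frame is read, and introns for *Snrpb* and *Hnrnpl*.

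Ribosomal protein genes behaved differently as totals and as transcripts. Of 49 genes of the 60S subunit, 2 rose and 15 fell (median -0.26), and of 33 genes of the 40S subunit none rose and 9 fell (median -0.30, all 33 negative), against a median of -0.02 with 13.2% higher and 6.76% lower over all genes. NMD-annotated transcripts of the same genes were higher in 6 of 16 cases for the 60S (median 0.89) and 3 of 7 for the 40S (median 0.27), with none lower, against 14.7% of all NMD-annotated transcripts. *Rpl12*, a 60S protein of the ribosomal stalk base, had 229.6, 204 and 268 CPM in the labelled mutants and 48.5, 39.5 and 41.7 CPM in controls (5.41-fold, adjusted p = 1.95e-06). Its NMD-annotated transcript *Rpl12-201* accounted for the largest part of this, at 153, 133 and 181 CPM against 10.2, 7.88 and 5.76 CPM, while the main coding form *Rpl12-203* was at 15.5, 14.5 and 14.1 CPM against 15.6, 12.8 and 16.02 CPM and was not called. The NMD-annotated share of *Rpl12* TPM was 82.1, 81.8 and 83.4% in the labelled mutants and 36.1, 33.95 and 23.8% in controls.

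In *Rpl10a* both forms changed, in opposite directions. *Rpl10a-203*, NMD-annotated, was at 319, 279 and 367 CPM in the labelled mutants and 36.6, 34.8 and 29.4 CPM in controls (log2 fold change 3.24, adjusted p = 0.000448), and the coding form *Rpl10a-201* was at 145, 167 and 116 CPM against 361, 292 and 386 CPM (log2 fold change -1.31, adjusted p = 0.0126). The total of *Rpl10a* rose by only 0.403. The coding forms *Rps19-203* (-0.83) and *Rpl22l1-206* (-0.61) also fell where an NMD-annotated form of the gene rose. *Rpl3-205* reached 76.1, 82.2 and 88.5 CPM against 5.58, 3.04 and 5.41 CPM and *Rps9-210* 131, 128 and 145 CPM against 9.55, 8.12 and 8.85 CPM, while the totals of *Rpl3* (-0.13) and *Rps9* (-0.06) were not called. Their stop codons were the following.
Rpl12-201: agaaagttggcgaTGAcattgccaaggcta
Rpl10a-203: gttggcaccgctcTAAccccacccagccct
Rpl3-205: tgtgctctgctccTGAaggcacaagtctaa
Rps9-210: tagcctttggagcTGAcagatgtgagctta
The stop of *Rpl12-201* (chr2:32962594-32962596, plus strand) lies in a coding exon of the main form, read in another frame. Those of *Rpl10a-203* (chr17:28329061-28329063, plus strand), *Rpl3-205* (chr15:80081034-80081036, minus strand) and *Rps9-210* (chr7:3706018-3706020, plus strand) lie in introns of it, 539, 138 and 161 nucleotides before the last exon junction of the transcript. *Rpl29*, a 60S protein gene, had the largest decrease of all genes eligible to be named, from 619, 581 and 686 CPM in controls to 83.1, 76.5 and 78.04 CPM in the labelled mutants (7.94-fold lower, adjusted p = 1.36e-07). Many ribosomal protein genes have processed pseudogenes, whose reads cannot be separated with certainty from those of the gene, and processed pseudogenes as a type had a median of -0.49 over 519 tested transcripts.

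**Figure D3:**
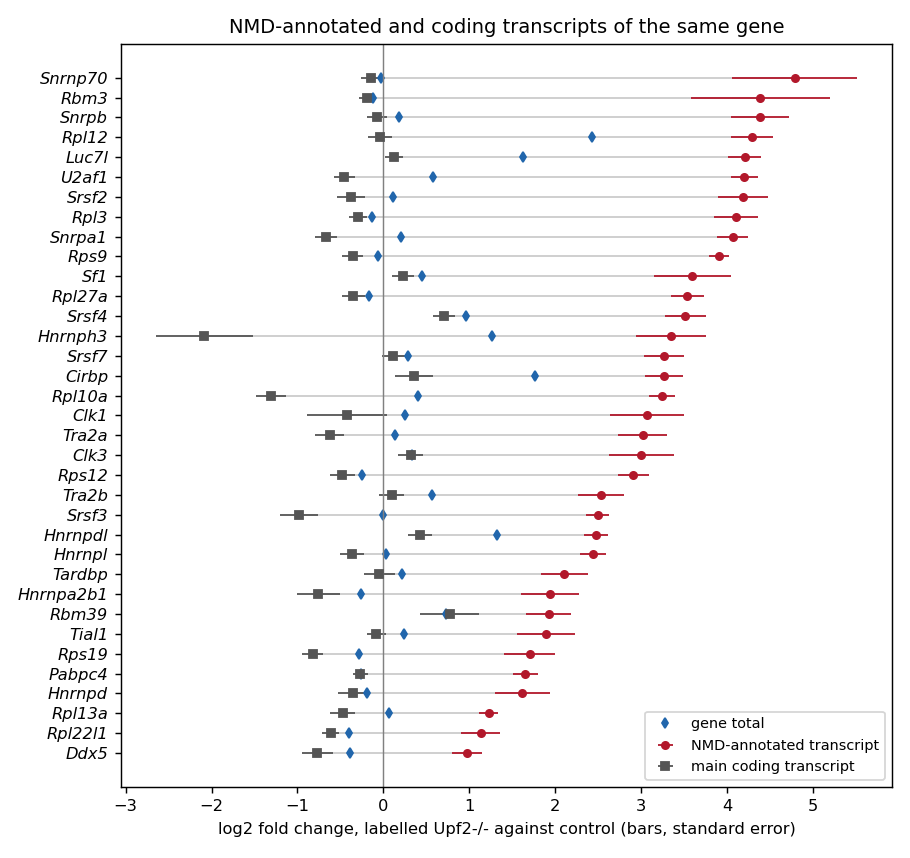
Log2 fold change (x axis, labelled *Upf2*-/- against control) of the NMD-annotated transcript that rose most, the main coding transcript and the gene total, for genes of splicing regulators and ribosomal proteins, with bars for standard errors and without genes whose NMD-annotated form had 0 counts in all controls. Only genes with an NMD-annotated transcript called higher without overlap are shown, so these forms are positive by selection, whereas the coding forms were not selected on their change. The NMD-annotated forms shown lie between 0.97 and 4.78. Of the coding forms, 33 of 35 lie within 1 of 0, the others being *Hnrnph3-201* at -2.08 (not called) and *Rpl10a-201* at -1.31.

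Among all genes, the NMD-annotated transcripts with the largest increases, among 272 that met the rule for naming, were led by *Wdr4-210*. *Wdr4* encodes a subunit of a tRNA methyltransferase. *Wdr4-210* had 0 counts in every control library and 21.1, 18.3 and 30.1 CPM in the labelled mutants, at least 230.3-fold higher than the floor of 3 counts per library. *Snx17-202*, from the gene of a sorting nexin, was at 14.4, 19.3 and 23.5 CPM in the labelled mutants and 1.51, 0.04 and 0.42 CPM in controls. Besides transcripts already described, the set held *Ercc8-210* (5.68), *Rtca-204* (5.22), *Nupr1-205* (4.99), *Snrnp70-204* (4.78), *Nop58-209* (4.57), *Slx1b-202* (4.37) and *Dnajc8-207* (4.32), each at low level in controls. Among 149 eligible retained-intron transcripts, *Necap2-203* and *Acp1-204* had 0 counts in all controls and were at least 60.3-fold and 10.9-fold higher. *Rnf25-204*, *Tsta3-210*, *Ssr4-204*, *Naxd-207* and *Ddx49-205* followed, with log2 fold changes of 4.87, 3.97, 3.84, 3.65 and 3.59.

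Several genes of the NMD machinery itself rose. Of 15 core factors, 8 were higher and none lower, with a median log2 fold change of 0.76, against 13.2% of all genes higher. *Smg9*, which regulates the SMG1 kinase, was at 58.9, 67.4 and 78.7 CPM in the labelled mutants and 16.7, 19.7 and 19.6 CPM in controls (log2 fold change 1.86, adjusted p = 1.26e-05). *Smg5* rose from 139, 127 and 137 CPM to 349, 367 and 411 CPM (log2 fold change 1.47). *Smg6*, the endonuclease of the pathway, rose by 1.24, the kinase gene *Smg1* by 1.202, the helicase gene *Upf1* by 0.96 and *Dhx34* by 0.88, and *Upf2* itself was described above. The paralogs *Upf3a* (0.31) and *Upf3b* (0.47), as well as *Smg8*, *Nbas*, *Pnrc2*, *Ruvbl1* and *Ruvbl2*, were not called. Both NMD-annotated and coding transcripts of these genes rose, with 2 of 3 and 7 of 28 higher (median 2.16 and 0.77), against 14.7% of all NMD-annotated and 2.99% of all coding transcripts. The coding form *Smg5-201* rose by 1.41 and *Smg6-201* by 0.82. Of 15 genes of the exon junction complex and its partners, only *Pym1*, which disassembles the complex on translated mRNA, rose (0.61), and none fell. Over all genes, 13.2% were called higher and 6.76% lower, so this list did not change more often than other genes.

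Host genes of snoRNAs carry these RNAs in their introns. Those listed here include noncoding genes as well as the coding genes *Eif4a2*, *Rabggtb*, *Taf1d* and *Nop56*, and held 6 of the 15 largest increases named. Of 20 tested, 14 rose and 1 fell (median 1.32), against 13.2% of all genes higher and 6.76% lower. *Zfas1* was at 509, 469 and 469 CPM in the labelled mutants and 27.04, 23.8 and 26.5 CPM in controls (18.7-fold, log2 fold change 4.21, adjusted p = 1.68e-08). *Snhg12* was at 254, 203 and 237 CPM against 17.2, 17.6 and 18.1 CPM. Replicates were close together and the groups were far apart in both. *Snhg5* (4.01), *Snhg16* (3.92), *Snhg1* (3.34), *Snhg15* (3.23) and *Snhg17* (2.69) rose over 6-fold, and *Gas5* rose from 74.6, 74.1 and 88.9 CPM to 327, 232 and 194 CPM. *Snhg3* fell (-0.54, adjusted p = 0.0208). *Snhg14*, *Snhg18*, *Snhg20*, *Dancr* and *Nop56* were not called, *Snhg9* was below the filter on low counts and no gene was named *Snhg7*.

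**Figure D4:**
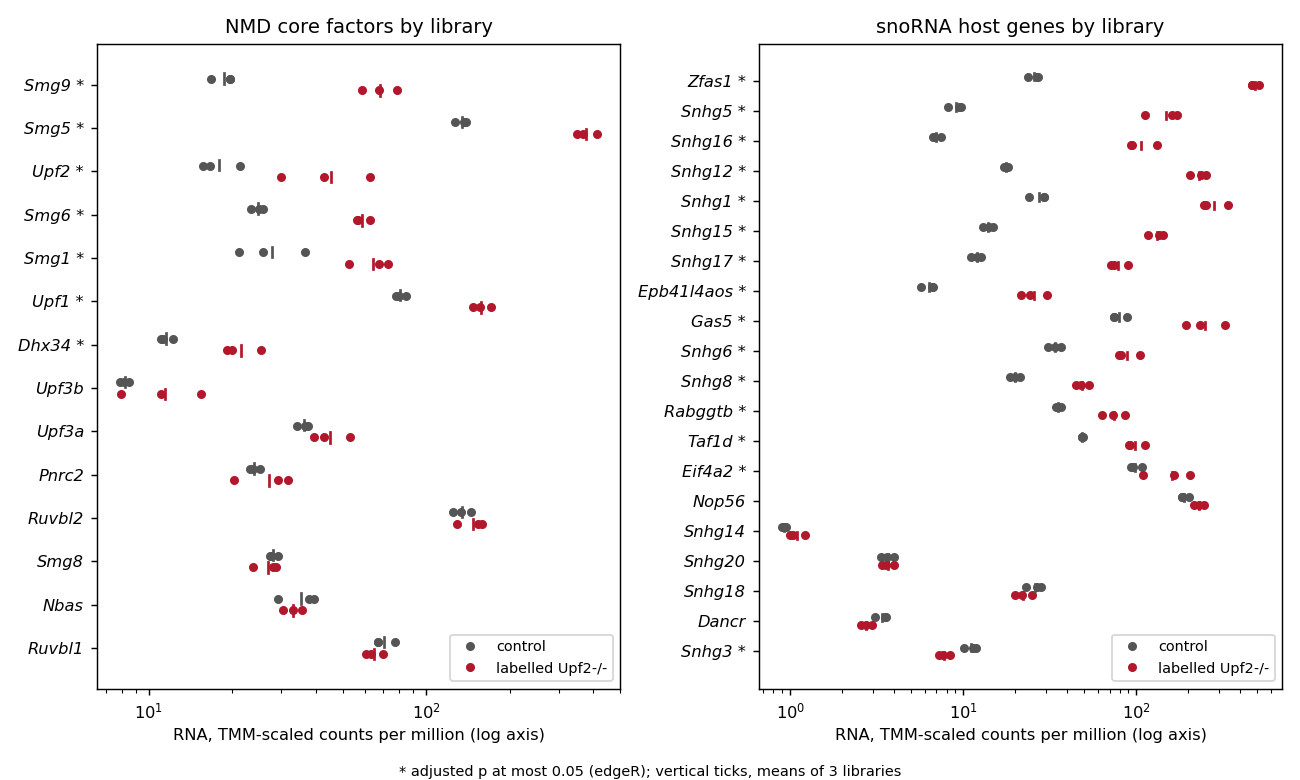
RNA of NMD core factors (left) and snoRNA host genes (right) in each library, in CPM on a log axis, with group means as ticks and an asterisk for an adjusted p of at most 0.05. *Zfas1* lies at 509, 469 and 469 in labelled *Upf2*-/- libraries and at 27.04, 23.8 and 26.5 in controls, while *Snhg3* lies lower in the labelled mutants.

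A list of 30 genes known as natural NMD targets contained 18 that rose and none that fell (median 0.82), against 13.2% of all genes higher. Some of its members are NMD factors or snoRNA hosts as well, and since it lists genes found in other NMD-deficient cells it was chosen for this direction. *Gadd45g*, a stress-inducible inhibitor of cell growth, was at 1581, 1271 and 1695 CPM in the labelled mutants and 119.9, 102 and 96.6 CPM in controls (14.3-fold, adjusted p = 2.51e-07). Its relatives *Gadd45b* (2.17) and *Gadd45a* (1.63) rose too. *Rassf1* (1.57), *Arfrp1* (1.49), *Dnajb2* (1.25) and *Ankrd54* (1.21) were among the further increases, while *Cdkn1a* (0.02), *Bag1* (0.09), *Upp1* (-0.56) and *Slc7a11* (-0.57) were among the 12 that were not called.

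Genes of the integrated stress response, in which phosphorylated eIF2 favours translation of the transcription factor ATF4 through upstream reading frames, moved only in part. Of 37 tested, 10 rose and 2 fell (median 0.09), against 13.2% of all genes higher and 6.76% lower. *Atf4* was at 635, 634 and 616 CPM in the labelled mutants and 169.8, 196 and 206 CPM in controls, and *Ddit3*, which encodes CHOP, at 299, 209 and 275 CPM against 26.3, 23.4 and 28.5 CPM. *Nupr1* (1.905), *Atf3* (1.895), *Ppp1r15a* (1.38), *Trib3* (0.89), *Atf5* (0.86), *Cebpb* (0.84), *Gdf15* (0.76) and *Sesn2* (0.53) rose. Several of these genes are also on the list of NMD targets. Among genes of amino acid and glutathione metabolism on the list, *Asns* was at -0.11, *Psat1* at -0.11 and *Chac1* at -0.02, none called, and *Pycr1* (-0.62) and *Cth* (-0.75) fell. Of 19 cytosolic aminoacyl-tRNA synthetase genes, *Yars* rose (0.35) and *Dars*, *Rars*, *Eprs* and *Gars* fell, by 0.705, 0.53, 0.47 and 0.34 on the log2 scale. That is 1 higher and 4 lower, against 13.2% of all genes higher and 6.76% lower. In the unfolded protein response of the endoplasmic reticulum, 3 of 22 genes rose (*Derl3*, 1.11, *Ern1*, 0.82, and *Sdf2l1*, 0.46), a share close to the 13.2% of all genes, and none fell.

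Many interferon-stimulated genes, which encode antiviral proteins, rose from low levels. Of 40 tested, 24 rose and none fell (median 1.53), against 13.2% of all genes higher and 6.76% lower, and the other 16 were not called. *Mx2* was at 1.46, 3.73 and 3.45 CPM in the labelled mutants and 0, 0.08 and 0.0387 CPM in controls, *Isg15* at 5.72, 17.1 and 14.9 CPM against 2.68, 3.12 and 4.43 CPM, and *Irf7* at 2.44, 5.67 and 6.53 CPM against 0.893, 1.04 and 1.97 CPM. In each of these 3 genes labelled mutant 1 was the lowest of its group. *Stat2* (1.62), *Cxcl10* (1.57), *Oasl1* (2.32) and *Ifit1* (1.99) rose as well. Of 12 macrophage markers none was called, and their summed level was 93.4 to 160 CPM in the labelled mutants and 102 to 147 CPM in controls.

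Cholesterol synthesis was the list with the largest share of decreases. Of 25 genes, none rose and 15 fell (median -0.56), against 6.76% of all genes lower. *Idi1*, an isomerase of the pathway, was at 11.7, 13.2 and 6.42 CPM in the labelled mutants and 32.4, 42.96 and 41.02 CPM in controls (log2 fold change -1.91, adjusted p = 0.000334). *Hmgcs1*, which makes HMG-CoA, was at 35.1, 34.97 and 27.99 CPM against 65.4, 96.5 and 86.7 CPM (-1.35). *Nsdhl* (-1.06), an enzyme of the later steps, fell too. *Srebf2*, the transcription factor of the pathway, was not called (-0.300).

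Among matrix genes, 4 of 27 collagen genes fell and none rose, against 6.76% of all genes lower and 13.2% higher, and *Col11a1* (-0.995) and *Col8a1* (-0.93) fell most. Of 36 genes of elastic fibres and matricellular proteins, 6 fell (*Fmod*, *Fbln5*, *Lox*, *Ogn*, *Mfap5* and *Efemp1*) and *Loxl3* rose. Of 10 smooth muscle markers 3 fell, namely *Acta2* at 9069, 7851 and 9773 CPM against 13294, 11355 and 13004 CPM, *Myh11* (-0.83) and *Synpo2* (-0.65), and the markers summed to between 13748 and 16861 CPM in the labelled mutants and between 18356 and 22132 CPM in controls. In bulk RNA, fewer cells of a type and less RNA per cell cannot be told apart. The part of a different cell mixture in the changes of other genes was not tested. Of 15 fibroblast markers *Twist2* rose (0.52) and *Vim* fell (-0.38). Skeletal muscle (1 of 11 lower), endothelial (1 of 9 lower), cartilage (1 of 9 lower), epithelial (1 of 7 lower), neural (1 of 11 lower) and adipocyte markers (none of 4) had at most 1 call each. The skeletal muscle markers nevertheless summed to 51.7 to 98.9 CPM in the labelled mutants and 115 to 151 CPM in controls, with 10 of 11 negative and a median of -0.50, and the epithelial markers to 100.1 to 153 CPM against 155 to 171 CPM, so that the groups did not overlap in either. Of 10 erythroid markers 9 were below the filter on low counts and 4 were at 0 in all 6 libraries.

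The counts of the remaining lists are read against 13.2% of all genes higher and 6.76% lower. p53 targets had 8 of 31 higher and 3 lower in RNA (median 0.01), while in footprints 3 of 29 were higher and 16 lower (median -0.29), against 22.3% and 21.1% of all genes. The lncRNA *Pvt1* of this list was at 144, 123 and 126 CPM in the labelled mutants and 11.1, 10.7 and 11.02 CPM in controls, *Cdkn1a* was not called, and *Ccng1* (-0.603) and *Perp* (-0.87) fell. Of 20 genes of ribosome rescue and quality control, *Gtpbp2* (0.93), *Zfp598* (0.66) and *Ankzf1* (0.53) rose. Selenoproteins, whose UGA codons for selenocysteine can be read as stops, had 3 of 20 higher and 2 lower, and *Selenow* (1.26) and *Selenoh* (1.09) led. Polyamine genes had 3 of 13 higher and none lower, with *Smox* (1.37) first. Initiation and elongation factors had 4 of 47 higher and 7 lower, DNA replication 3 of 41 higher and 1 lower, mitosis 1 of 35 in each direction, lysosome genes 2 of 38 in each direction, immediate early genes 2 of 29 higher and 1 lower, and chemokines, cytokines and NF-kB genes 3 of 27 higher and 2 lower. None of 13 mitochondrially encoded genes was called.

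**Figure D5:**
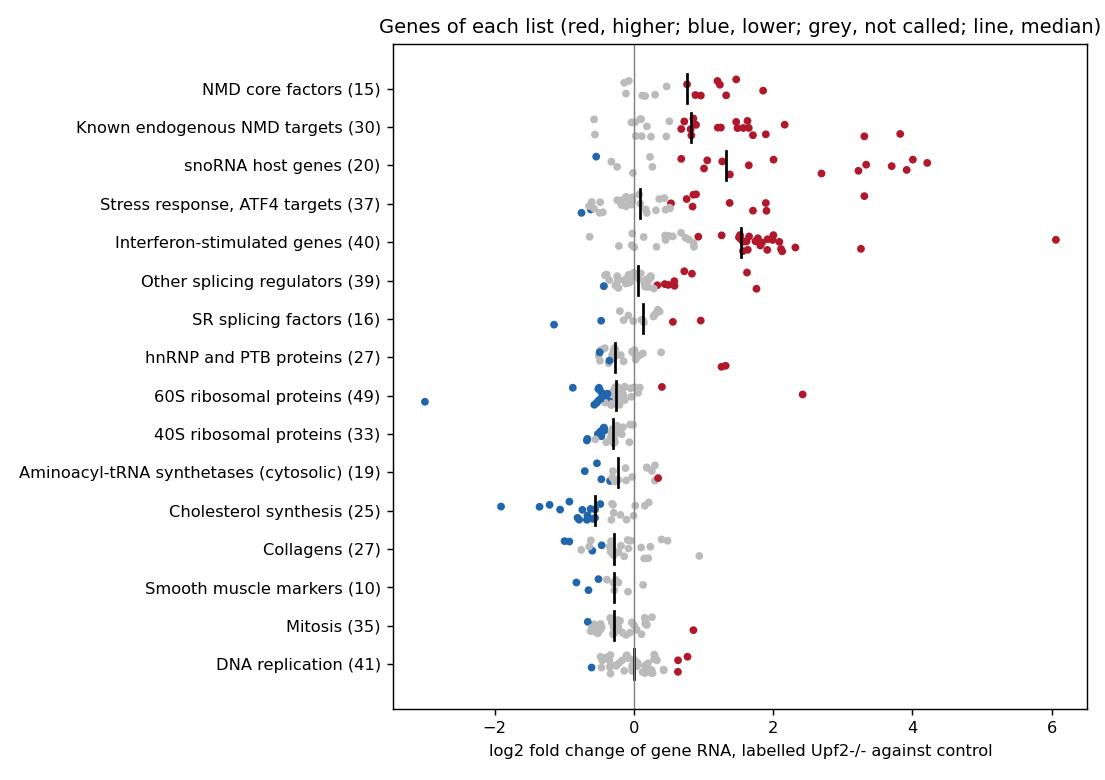
Log2 fold change of gene RNA (x axis, labelled *Upf2*-/- against control) for each tested gene of 16 lists, in red where higher, in blue where lower and in grey where not called, with the list's median as a line and the number of genes in brackets. snoRNA hosts (median 1.32) and interferon-stimulated genes (median 1.53) lie to the right, and cholesterol synthesis (median -0.56) to the left.

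Across all lists, the largest increases among 1529 eligible genes were led by the histone gene *H2ac12*, at 25.01, 87.7 and 40.7 CPM in the labelled mutants and 0.658, 0.52 and 0.0515 CPM in controls (log2 fold change 7.46, standard error 0.69). Of the other 14 genes in this set, 6 were on the list of snoRNA hosts, and *Gadd45g*, *Ddit3* and *Pvt1* were described above. The rest were the noncoding or little studied genes *Gm21887* (3.31, standard error 0.94), *5430416N02Rik* (3.097), *2410006H16Rik* (3.07), *4933407K13Rik* (3.06) and *Gm13285* (3.03), which are not on that list. *Gm21887* had 13.3, 21.7 and 0.116 CPM in the controls, so that its call rests on an uneven group. The decreases among 803 eligible genes were smaller. After *Rpl29* came *C1qtnf3*, which encodes a secreted protein of connective tissue, at 15.7, 13.3 and 9.91 CPM against 45.2, 47.4 and 52.6 CPM (-1.92), and then *Idi1*, *Rab3b* (-1.66), *Synpo2l* (-1.62), *Nkain4* (-1.39), *Hmgcs1*, *Ccdc184* (-1.34), *Etl4* (-1.32), *Pde6a* (-1.21), *Gamt* (-1.197), *Eno3* (-1.19), *Crip1* (-1.19), *D6Wsu163e* (-1.19) and *Krt20* (-1.17).

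Ribosome footprints of MEFs of the same genotypes were sequenced in separate libraries of another batch, 3 labelled *Upf2*-/- and 3 controls, with 5782990 to 15602201 counts each. Of 12166 genes with footprints, 5279 changed (43.4%). Of the 2113 genes higher in RNA, 1665 were tested for footprints, and 785 of these were higher (47.1%, against 22.2% of all genes tested in both) and 56 lower. Of the 1081 genes lower in RNA, 949 were tested, and 503 were lower, against 21.2% of all genes tested in both, and 49 higher. The median footprint change was 0.32 for the former, whose median RNA change over all 2113 was 0.72. Footprints are counted on coding sequences and do not tell transcripts apart. Footprints of *Upf2* changed by 1.09, those of *Gadd45g* by 1.98 and those of *Ddit3* by 0.805, all called higher. *Rpl10a*, with a total RNA change of 0.403, had a footprint change of 2.08 (adjusted p = 1.48e-06). For the 15 core NMD factors, 12 had more footprints and none fewer. Of 25 cholesterol genes 7 had more footprints and 5 fewer, and *Idi1* (-0.07) and *Hmgcs1* (-0.05) were not called. All 39 interferon-stimulated genes tested had more footprints (median 3.68).

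MEFs labelled *Hbs1l*-/- and *Pelo*-/-, which lack factors that rescue stalled ribosomes, were sequenced with the same controls, so their fold changes share control libraries with those given so far. Compared directly with the 3 libraries labelled *Hbs1l*-/-, which share no library with the mutants, the labelled *Upf2*-/- libraries had 618 of 3081 NMD-annotated transcripts higher (20.1%) and 37 lower, against 6.66% of all transcripts higher and 4.14% lower. The count of 618 fell to between 273 and 432 when 1 of these 6 libraries was left out. *Srsf3-201* was higher by 2.92, *U2af1-208* by 3.905 and *Rpl10a-203* by 3.401 on the log2 scale. *Zfas1*, at 20.6, 27.1 and 27.4 CPM in the libraries labelled *Hbs1l*-/- and 16.6 and 22.2 CPM in the 2 labelled *Pelo*-/-, was higher by 4.26 and *Gadd45g* by 4.15 (16.1% of 16223 genes higher, 11.1% lower). Of the 40 interferon-stimulated genes none was higher and 33 were lower than in the libraries labelled *Hbs1l*-/-, with *Isg15* at 55.5, 80.4 and 39.4 CPM in the latter. Of the 25 cholesterol genes 15 were lower, with *Idi1* at a log2 difference of -1.17. The decrease was not particular to the labelled *Upf2*-/- libraries. In the libraries labelled *Pelo*-/- 13 of the 25 were lower than in the shared controls and 1 was higher (median -0.46). Ribosomal protein genes fell there too, 33 of 49 of the 60S (median -0.40) and 23 of 33 of the 40S (median -0.42). None of these genes rose. In the libraries labelled *Hbs1l*-/- 1 rose and 1 fell for the 60S, and 2 rose for the 40S. Of 39 interferon-stimulated genes, 36 were higher and none lower in the libraries labelled *Hbs1l*-/- than in the shared controls (median 3.18). In those labelled *Pelo*-/- none of 30 was higher and 7 were lower. The NMD-annotated share of *Srsf3* TPM was 4.17, 5.63 and 6.53% in the libraries labelled *Hbs1l*-/- and 11.5 and 14.5% in those labelled *Pelo*-/-.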

How the data were processed

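RNA of 6 MEF libraries was compared. Per the labels and methods, the authors made stranded poly(A) libraries, sequenced them from both ends and quantified them with kallisto 0.42.4 on the Gencode M24 transcripts, and they deposited estimated counts and TPM for each transcript, which were used as deposited. Footprint counts of coding sequences had been made by the authors with Bowtie2 2.2.3, HISAT2 2.1.0 and featureCounts on mm10. Histone genes were removed before the footprint test here, so *H2ac12* has no footprint result. The paper also removed histone genes from its footprint analysis. Estimated counts, summed per gene or kept per transcript, were rounded, filtered with filterByExpr and tested with edgeR 4.0.16 (quasi-likelihood test, TMM, R 4.3.3) and Benjamini-Hochberg adjustment over all genes or transcripts, at a threshold of 0.05. Estimated counts of transcripts of a gene share reads, so their errors are larger than counting error. P values measure the spread between 3 embryos, each grown in 1 dish, per group. DESeq2 1.42.0, other factors and filters, thinning, leaving out libraries and a replicate block were tried. The tests were checked on counts simulated with the same dispersion for every feature and no reads shared between transcripts. This check therefore does not gauge the error of shared reads. It recovered 79% of genes and 68% of transcripts given a log2 change of 1 in either direction.

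Members and lists were chosen with earlier results of these data known. Named were the NMD factors, the 15 genes with the largest changes in each direction (mean of at least 5 CPM, groups without overlap), the 15 NMD-annotated and 8 retained-intron transcripts with the largest increases (mean of at least 2 TPM), and the leading and defining members of each list. Transcript types were read from the deposited transcript identifiers, and Gencode M21 models gave coordinates, stop codons and sequences. A few members are counted in their lists but not reported by name or plotted by name here.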

Additional observations from a re-analysis of the deposited data

Results flagged for a closer look

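The direct comparison of the labelled *Upf2*-/- libraries with those labelled *Hbs1l*-/- showed that the change from control differed between these genotypes for many features, since both have the same controls. By edgeR's quasi-likelihood test, 4403 genes and 4540 transcripts differed between them.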

How the results depend on the processing

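For genes against controls, 1800 to 3201 were called when 1 library was left out, against 3194, and DESeq2 (3715), other factors, no filter and thinning stayed within 1.5 times. Of 2175 transcripts, 567 to 1278 were called when 1 library was left out and 5639 by DESeq2, and of 434 NMD-annotated transcripts that rose, 126 to 313 and 767. Increases made up 66.2% of gene calls, 58.2% by DESeq2 and 63.9% to 80.2% with 1 library left out, and 81.6% of transcript calls, 61.6% by DESeq2 and 85.5% to 94.0% with 1 library left out. Against the libraries labelled *Hbs1l*-/-, leaving out 1 library gave 2685 to 3771 genes and 1329 to 2279 transcripts, and DESeq2 called 8069 transcripts, with 273 to 432 and 863 of them NMD-annotated and higher, against 618. The difference in the NMD-annotated share of TPM of 0.52 percentage points was 0.82 as a share of estimated counts and 1.12 without short RNAs, and that of retained introns was 0.53 without short RNAs, a setting chosen after seeing the data. The cause of these shifts was not tested. No call of 148 genes and 120 transcripts followed changed direction under the settings run, but 32 of these genes and 48 of these transcripts lost their call without at least 1 library.

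Replicate numbers are shared by the groups, but libraries with the same number did not deviate together (correlations of -0.18, 0.25 and -0.19 across genes), so the numbers were not taken as pairs. With a replicate block, 3314 genes, 112 transcripts and 36 NMD-annotated transcripts that rose were called, 3 of the genes and 66 of the transcripts followed lost their call, and 415 transcripts, 99 of them NMD-annotated and higher, were called against the libraries labelled *Hbs1l*-/-.

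With 3 libraries per group, exact permutation tests cannot go below 0.1.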

Other observations

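*Rpl29* was the largest decrease, and it was seen in the labelled *Upf2*-/- libraries but not to a like size in the other mutants, at 679.9, 648 and 676 CPM in the libraries labelled *Hbs1l*-/- and 460.1 and 498 CPM in those labelled *Pelo*-/-. The direct difference from the libraries labelled *Hbs1l*-/- was -3.08 on the log2 scale (adjusted p = 1.69e-07 by edgeR), and footprints of *Rpl29* changed by -2.11. In the same direct comparison *Pvt1* was higher by 3.83 and *H2ac12* by 6.53.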
